A study of Homo sapiens with 4 samples.

Results

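The 7SK RNA and the control of transcription elongation by P-TEFb were examined through 7 gene names, RN7SK, HEXIM1, LARP7, CDK9, CCNT1, CCNT2 and RNU2, in HepG2 cells given the plant alkaloid berberine. Each of the 7 had 1 probe on the array, among 17778 named genes and 26423 probes. Probes were taken by the gene symbol that the platform annotation gives them. RN7SK and RNU2 were chosen by their log2 fold change, since they were among the largest rises with berberine in these same samples, so the values of all 7 are a description of that contrast, and no test is read from them.

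HepG2 is an established human hepatocellular carcinoma line. Total RNA was labelled with Cy5 as amplified RNA and measured on 1-colour arrays in 2 control samples, without berberine, and 2 samples given 26.95 µM berberine for 24 hours, in the same medium. The description field of the labels instead names a differentiation procedure of 48 hours and, for treated samples, 13.47 µM berberine, and this conflict could not be resolved. Nothing in the labels says that the 2 replicates of a group came from separate cultures, so the spread between them may be technical.

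P-TEFb is the kinase CDK9 bound to a cyclin T, CCNT1 or CCNT2. It phosphorylates RNA polymerase II and the pausing factors DSIF and NELF, which lets a polymerase paused just past the promoter move on into the gene. The 7SK small nuclear RNA holds a large pool of P-TEFb inactive. It is capped by MEPCE, is protected at its 3′ end by LARP7, and carries HEXIM1 or HEXIM2, which inhibits the kinase when bound to the RNA. RNU2 names the U2 small nuclear RNA, a component of the spliceosome that pairs with the branch site of introns and has no role in the 7SK complex. Both RNAs lack a poly(A) tail, and the primer used for labelling is not given in the sources used here.

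The probe identifiers and gene names are those of a mouse array, while the labels give human cells. Each gene name below thus stands for what a mouse probe picked up. The deposited intensities had medians of 62 to 90 per array, with 269 values below 0 in control 2, 0 in control 1, and 1 and 11 in the berberine samples. Levels below are log2(intensity + 1) after quantile normalization. As a guide to dim signal, 528 olfactory receptor genes were taken, most of which liver cells are not known to use. They had a 95th percentile of 9.24 on this scale, and 9.15% of all genes had means above it. Of 15 measured hepatocyte markers 1 had a mean above 9.24, of 17 adipocyte markers 5 did, and of 10 fibroblast markers 0 did. The hepatocyte marker above 9.24 was RBP4, with a mean of 13.34. The adipocyte markers above it were CEBPA, SLC2A4, PNPLA2, ADIPOR2 and CD36. Others of that list, such as ADIPOQ, at 6.65, and FABP4, at 6.52, lay below it. Of the hepatocyte markers below it, ALB, albumin, had a mean of 8.35. The oncofetal serum protein AFP, a known product of HepG2 cells, had a mean of 4.75.

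Some of these cell type markers moved with berberine. In the trend test of limma defined below, 2 of 15 hepatocyte markers and 1 of 17 adipocyte markers passed, all lower. Of the 10 fibroblast markers 0 did. Over all genes 1.46% passed that test, and 0.501% passed it with berberine lower. Without the trend 0 of the 3 lists' genes passed, against 0.0506% of all genes. At an unadjusted limma p under 0.05 were 5 (33.3%), 5 (29.4%) and 1 (10.0%), against 13.0% of all genes. FGG, the fibrinogen gamma chain, was at -1.77 (trend adjusted p = 0.0163), RBP4, the plasma carrier of retinol, at -1.08 (0.025), and CEBPA, a transcription factor of both liver and fat cells, at -1.89 (0.00489), where 2 dimmer RBP4 probes changed by -0.15 and -0.22. The adipocyte markers RETN, at -1.20, and FABP4, at 1.004, passed neither test, though their groups were apart. The summed normalized intensity of the hepatocyte list was 17870 and 16740 in the controls and 8110 and 9750 with berberine. That of the adipocyte list was 19450 and 19050 against 15320 and 15280. That of the fibroblast list was 966 and 908 against 1030 and 1033. Most of the hepatocyte sum came from RBP4, at 13.93 and 13.84 in the controls and 12.68 and 12.93 with berberine. CEBPA, at 11.99 and 11.85 against 10.08 and 9.99, made up most of the fall in the adipocyte sum. The sums thus do not show that whole lists fell. The median log2 fold change was -0.19 for the hepatocyte list (6 higher, 9 lower) and -0.09 for the adipocyte list (4 higher, 13 lower). No marker was at 0 in any sample. The part of such shifts in the results below was not tested.

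The probe named for the 7SK RNA gave the second highest rise of all genes. The deposited RN7SK intensities were 230 in control 1 and 168 in control 2, and 2613 in berberine 1 and 3120 in berberine 2. Both berberine samples were far above both controls, and even the closest pair of samples from different groups differed 11.4-fold. After normalization the probe went from 7.59 ± 0.11 to 11.59 ± 0.04 (SD, n = 2 in each group), a log2 fold change of 4.001 with an SE of 0.120, or 16.0-fold. Ranks of the same readings, which need no normalization, showed the rise too and are not separate support for it. Among all probes of its own array the RN7SK probe stood at percentile 76.8 and 74.6 in the controls and at 98.9 in both berberine samples. Its control level lay below the olfactory receptor 95th percentile and its berberine level above it, so the fold is set against a control signal in the dim range.

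The probe named for the U2 RNA moved in the same way. The deposited RNU2 intensities were 335 and 230 in the controls and 2446 and 3064 with berberine, so the groups were again wide apart, with at least 7.30-fold between any control and any berberine sample. The normalized level went from 8.06 ± 0.18 to 11.53 ± 0.06 (SD, n = 2 in each group), a log2 fold change of 3.47 with an SE of 0.139, or 11.1-fold, which ranked next after that of RN7SK among all genes. Its percentile within the array was 83.5 and 80.8 in the controls and 98.8 and 98.9 with berberine. The control level lay below 9.24 here too.

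The rise of RN7SK exceeded that of RNU2 by 0.53 on the log2 scale, and by 0.56 with intensities as deposited. Within each array, RN7SK minus RNU2 was -0.52 and -0.43 in the controls and 0.07 and 0.04 with berberine. Both control signals lay in the dim range, where background counts for more, so these differences are given as values and do not show which RNA rose or was present more.

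**Figure D1:**
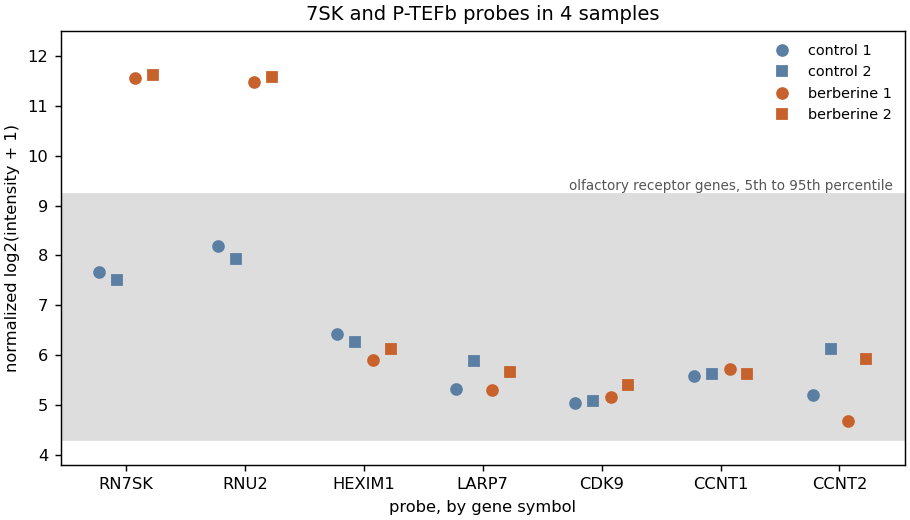
Normalized log2(intensity + 1) of the probe of each of the 7 genes, with 1 point per sample, controls in blue and berberine in orange, circles for replicate 1 and squares for replicate 2. The grey band runs from the 5th to the 95th percentile (4.29 to 9.24) of 528 olfactory receptor genes, and only the berberine values of RN7SK and RNU2, from 11.49 to 11.61, lie above it.

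The probes of HEXIM1 and LARP7, which encode proteins of the 7SK complex, were dim in every sample. HEXIM1, the protein that blocks CDK9 when bound to 7SK, read 98 and 60 in the controls and 59 and 75 with berberine as deposited, and the groups overlapped. Normalized, it was 6.42 and 6.27 in the controls and 5.91 and 6.12 with berberine, so the groups were apart, with berberine lower, at a log2 fold change of -0.33 and an SE of 0.140. Of all genes, 45.0% had groups apart. Berberine was higher in this sense for 21.7% of all genes and lower for 23.3% of all genes. LARP7, which binds the 3′ end of 7SK RNA and stabilizes it, read 49 and 42 in the controls and 40 and 55 with berberine. Its groups overlapped with and without normalization, and its log2 fold change was -0.12 with an SE of 0.259. LARP7 was higher in replicate 2 than in replicate 1 of both groups after normalization (5.31 and 5.88 in the controls, 5.29 and 5.65 with berberine).

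The kinase and its cyclins gave the same picture of dim signal. CDK9, the catalytic subunit, read 41 and 14 in the controls and 39 and 45 with berberine as deposited, where the low value belonged to control 2. Normalized, it was 5.04 and 5.08 in the controls and 5.15 and 5.39 with berberine, with the groups apart and a log2 fold change of 0.21 (SE 0.135). That value was 0.77 with intensities as deposited and 0.66 with median centring. CCNT1, the main cyclin partner of CDK9, read 58 and 32 in the controls and 57 and 53 with berberine. Its groups overlapped, and its log2 fold change was 0.07 with an SE of 0.112.

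CCNT2, the other cyclin partner, varied more between replicates than between groups. It read 43 and 52 in the controls and 29 and 66 with berberine, and the normalized levels were 5.20, 6.11, 4.67 and 5.92. The lowest and the second highest of these belonged to the berberine samples, so the groups overlapped widely, at a log2 fold change of -0.36 with an SE of 0.556. All 5 protein probes had deposited intensities between 14 and 98 and lay within the olfactory receptor range in each sample. A fold change of these transcripts may therefore not be measurable with these probes, and small values here do not show that the transcripts kept their levels.

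Of the 7 genes, 2 were at least 2-fold higher with both berberine samples above both controls, against 1.09% of all genes, and 0 were at least 2-fold lower in the same sense, against 1.04%. The same 2, RN7SK and RNU2, were past an adjusted p of 0.05 in limma, as were 0.0506% of all genes. Because the contrast served to choose them, nothing is read from these counts, nor from the calls under other settings that follow. Over other scalings RN7SK passed and RNU2 did not with intensities as deposited (limma adjusted p = 0.0371 and 0.0658), and with median centring neither did (0.168 and 0.212). With the variance of limma modelled as a trend in intensity (the trend test below), the 2 again passed, against 1.46% of all genes. With control 1, control 2, berberine 1 or berberine 2 left out, 0 genes of the whole table passed in limma, whatever their fold (1312 to 2763 at an unadjusted limma p under 0.05) or in the trend test, while RN7SK stayed between 3.92 and 4.08 and RNU2 between 3.35 and 3.60.

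**Figure D2:**
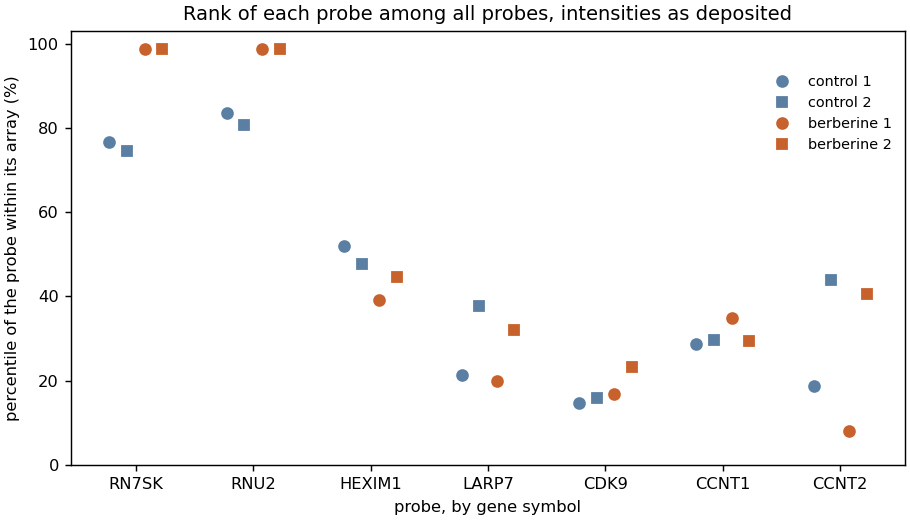
Percentile of each of the 7 probes among all 26423 probes of the same array, from the intensities as deposited, with 1 point per sample as in the plot of levels. RN7SK and RNU2 stand between 74.6 and 83.5 in the controls and at 98.8 to 98.9 with berberine, while the 5 protein probes range from 8.07 to 51.9, with groups that overlap for LARP7, CCNT1 and CCNT2.

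Other short non-coding RNAs on the array were set beside RN7SK and RNU2. Of 14 others, 0 were at least 2-fold changed with groups apart, against 1.09% of all genes higher and 1.04% lower. In limma 0 of the 14 passed, against 0.0506% of all genes, and in the trend test 0 passed, against 1.46%. With shares this small, 0 of 14 says little about these RNAs. An unadjusted limma p under 0.05 was found for 3 (21.4%), against 13.0% of all genes. Over the 14, the median log2 fold change was -0.07, against -0.01 over all genes, and the changes ranged from -0.77 to 0.48. None of the 14 had a mean above 9.24.

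Among them, RMRP, RPPH1 and VAULTRC5 are made by RNA polymerase III, as 7SK is, and did not pass either test. RMRP, the RNA of the mitochondrial RNA processing ribonuclease, read 185 and 93 in the controls and 94 and 114 with berberine (log2 fold change -0.40, SE 0.233). RPPH1, the RNA of ribonuclease P, read 98 and 51 in the controls and 75 and 95 with berberine (0.14, SE 0.176), with groups that overlapped. VAULTRC5, named for the vault RNA, had the strongest statistic of the 14 and was lower with berberine, at 5.92 and 5.88 in the controls and 5.36 and 5.31 with berberine (log2 fold change -0.57, limma adjusted p = 0.221, trend adjusted p = 0.207).

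Probes of other small nuclear RNAs did not pass either test. RNU1B2, named for the U1 RNA that pairs with 5′ splice sites, read 175 and 121 in the controls and 122 and 152 with berberine, and its groups overlapped (log2 fold change -0.09, SE 0.135). RNU11 and RNU12, of the minor spliceosome, had log2 fold changes of 0.14 (SE 0.188) and -0.10 (SE 0.178). RNU7, which guides the cleavage of histone transcripts, read 241 and 159 in the controls and 173 and 191 with berberine, at -0.01 (SE 0.148). All 3 had overlapping groups.

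The guide RNAs of Cajal bodies, which direct chemical modification of spliceosomal RNAs, ranged from -0.77 for SCARNA10 to 0.48 for SCARNA6. These ends moved with the scaling, to -0.03 as deposited and -0.15 with median centring for SCARNA10, and to 0.31 and 0.20 for SCARNA6. SCARNA6 read 307 and 259 in the controls and 317 and 386 with berberine, so its deposited groups were apart by a small margin. Among the 7 SNHG genes, long RNAs that host small nucleolar RNAs, SNHG11 passed the trend test and fell, from 9.63 and 9.61 in the controls to 7.29 and 6.88 with berberine (log2 fold change -2.54, trend adjusted p = 0.0083, limma adjusted p = 0.0743 without the trend). The berberine level of SNHG11 lay below 9.24. The other SNHG genes lay between -0.36 and 0.26.

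**Figure D3:**
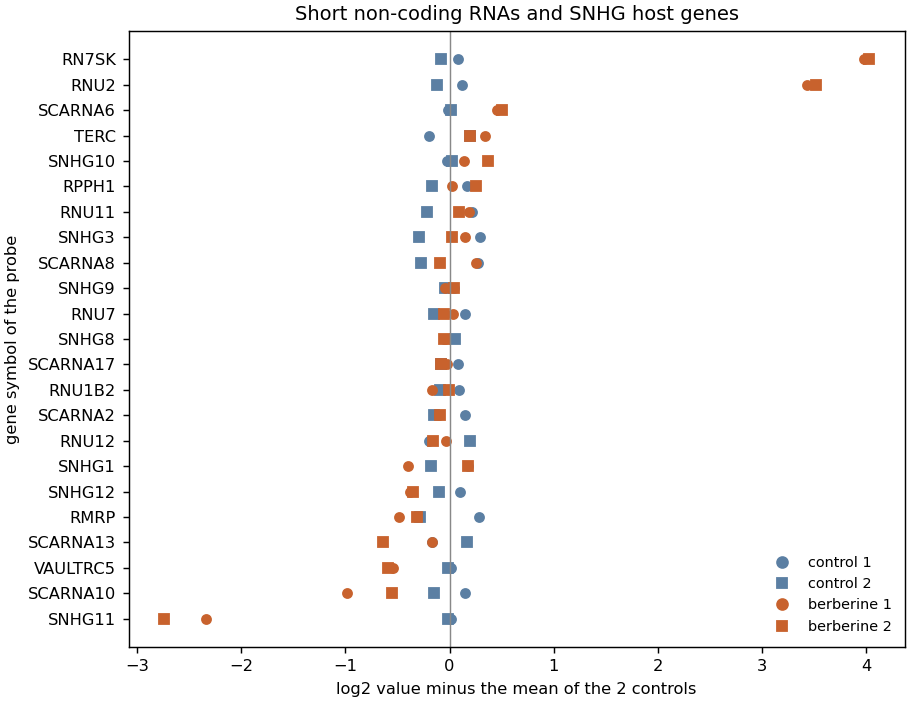
Log2 value of each sample minus the mean of the 2 controls, for 16 short non-coding RNAs and 7 SNHG host genes ordered by their log2 fold change, controls in blue and berberine in orange. RN7SK and RNU2 lie at 4.001 and 3.47, the 14 other short RNAs lie between -0.77 and 0.48, and SNHG11 is at -2.54.

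Genes that act with or around P-TEFb were described through 10 lists with 162 genes outside the 7. Of the 162, 0 passed in limma, against 0.0506% of all genes. An unadjusted limma p under 0.05 was found for 23, a share of 14.2% against 13.0% of all genes. In the trend test 3 passed, a share of 1.85% against 1.46% of all genes, and all 3 were lower with berberine, as were 0.501% of all genes. None of the 162 was at least 2-fold changed with groups apart, against 1.09% of all genes higher and 1.04% lower. The median log2 fold change was -0.02 against -0.01 over all genes. Means above 9.24 were found for 23 of the 162. With control 1, control 2, berberine 1 or berberine 2 left out, a group held only 1 sample, so only fold changes are given here. The log2 fold changes of the 3 stayed at -1.04 to -0.90, -0.99 to -0.89 and -0.77 to -0.64, in the order in which they are described next.

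The first of the 3 was RDBP, which encodes the NELF-E subunit of the negative elongation factor NELF. It read 12.90 and 12.78 in the controls and 11.80 and 11.93 with berberine, 1.96-fold lower (log2 fold change -0.97, SE 0.122, trend adjusted p = 0.0178, limma adjusted p = 0.126). The level was well inside the bright range, both berberine samples lay below both controls, and a second RDBP probe changed by -1.13. The other 5 measured genes of DSIF and NELF lay between -0.20 and 0.37, with COBRA1 (NELF-B) at -0.20, SUPT5H, the large subunit of DSIF, at -0.19, and WHSC2 (NELF-A) at 0.37. The median of the list was -0.15, and 0.08 with intensities as deposited.

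The second was U2AF1, the small subunit of the factor that recruits U2 to the 3′ splice site. It read 13.61 and 13.65 in the controls and 12.74 and 12.64 with berberine, 1.92-fold lower (log2 fold change -0.94, SE 0.111, trend adjusted p = 0.0127, limma adjusted p = 0.121). A second U2AF1 probe changed by -0.29. Its partner U2AF2, the large subunit, was at -0.52 and did not pass. The list of 23 genes, of the U2 particle and of factors that act with it, had a median of 0.10. It ranged from -0.94, for U2AF1 itself, to 0.61. Of the 23, 4 (17.4%) had an unadjusted limma p under 0.05, against 13.0% of all genes. The probe named for the U2 RNA was at 3.47.

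The third was INTS9, a subunit of the Integrator complex, which cleaves the 3′ ends of small nuclear RNAs such as U2. It read 9.57 and 9.43 in the controls and 8.79 and 8.80 with berberine, 1.63-fold lower (log2 fold change -0.70, SE 0.114, trend adjusted p = 0.0454, limma adjusted p = 0.182). Its mean of 9.15 lay below 9.24. In the list of 18 genes for small nuclear RNA transcription and 3′ end formation, 6 (33.3%) had an unadjusted limma p under 0.05, against 13.0% of all genes. They included SNAPC1, of the complex that binds the promoters of both 7SK and U2 genes, at 0.65, and POU2F1, the octamer-binding factor of those promoters, at -0.67, neither of which passed after adjustment.

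Partners and regulators of 7SK and P-TEFb numbered 23, of which 0 passed either test. Of the 23, 5 (21.7%) had an unadjusted limma p under 0.05, against 13.0% of all genes. MEPCE, the enzyme that caps 7SK RNA, was one of the bright members and read 10.12 and 10.00 in the controls and 10.43 and 10.61 with berberine (log2 fold change 0.46, but 0.20 with intensities as deposited and 0.09 with median centring). HEXIM2, the paralog of HEXIM1, was at 0.18 with overlapping groups. BRD2, a bromodomain protein that binds acetylated histones, had the strongest statistic of the list and was lower with berberine, at 9.84 and 9.74 against 9.18 and 9.09 (log2 fold change -0.65, trend adjusted p = 0.0533, limma adjusted p = 0.199). The median of the list was 0.01, and it turned to -0.18 with intensities as deposited and -0.29 with median centring.

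The super elongation complex, which delivers active P-TEFb to genes, had 11 measured genes, of which 0 passed either test. Of the 11, 2 (18.2%) had an unadjusted limma p under 0.05, against 13.0% of all genes. ELL2, an elongation factor of the complex, had the strongest statistic, at 6.89 and 6.94 in the controls and 7.67 and 7.61 with berberine (log2 fold change 0.72, trend adjusted p = 0.0608, limma adjusted p = 0.158), with a mean below 9.24. ELL3 was at 0.35, and the scaffolds AFF1 and AFF4 were at -0.03 and -0.22. The median of the list was 0.13.

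The remaining lists held 0 genes past either test. Of 16 genes of the PAF complex and other elongation factors 0 had an unadjusted limma p under 0.05, against 13.0% of all genes. RTF1 had the strongest statistic there, at 0.43 (limma adjusted p = 0.383). Among 14 other transcription kinases and cyclins the strongest was CDK11B at 0.35 (limma adjusted p = 0.38). It was at 0.17 with intensities as deposited and 0.06 with median centring. In that list 1 gene (7.14%) had an unadjusted limma p under 0.05. Among 11 subunits of RNA polymerase II the strongest was POLR2H at -0.60, or -0.30 with intensities as deposited and -0.41 with median centring. There 1 gene (9.09%) had an unadjusted limma p under 0.05, and the list's median was -0.10. For RNA polymerase III, which transcribes 7SK, 24 genes had a median of -0.03. MAF1, a repressor of that polymerase, had the strongest statistic at 0.53 (limma adjusted p = 0.289). It was at 0.31 with intensities as deposited and 0.19 with median centring. MAF1 was the 1 gene of the list (4.17%) with an unadjusted limma p under 0.05. Among 16 genes of small nuclear RNA maturation WDR77 was the strongest, at 0.91 (limma adjusted p = 0.192), with a dim mean of 4.60, and 2 had an unadjusted limma p under 0.05.

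**Figure D4:**
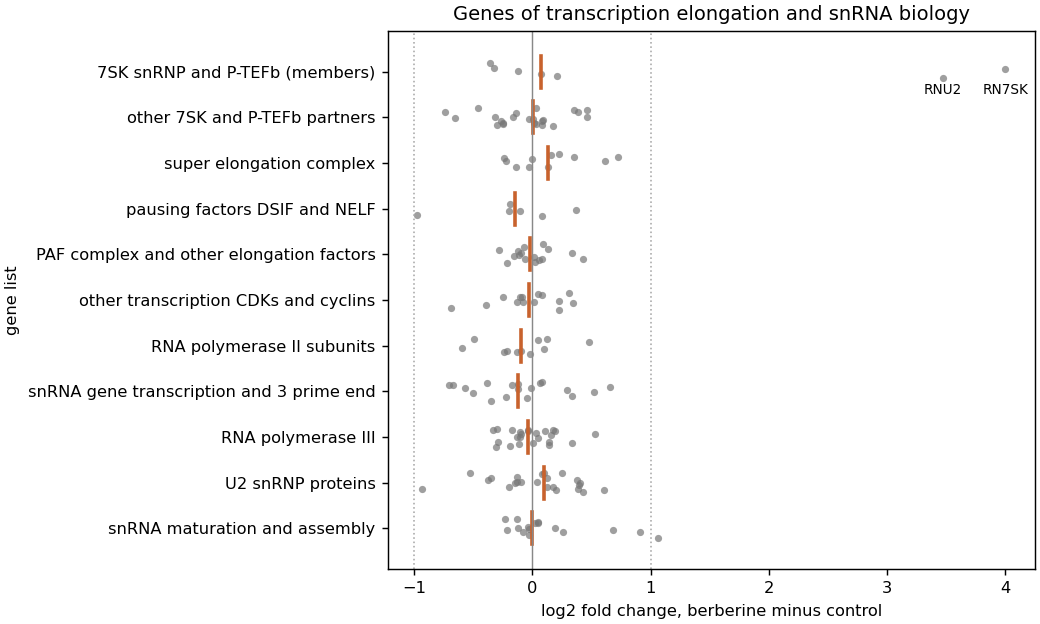
Log2 fold change, berberine minus control, of every measured gene in the list of the 7 genes and in 10 lists of elongation and small nuclear RNA biology, with 1 grey point per gene, an orange bar at each list's median and dotted lines at a 2-fold change. RN7SK at 4.001 and RNU2 at 3.47 stand alone on the right, and the 162 other genes lie between -0.97 and 1.06.

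The genes whose profiles over the 4 samples were nearest to those of RN7SK and RNU2 were found by the Euclidean distance between log2 profiles, each centred on its own mean. Nearest to RN7SK was RNU2, at a distance of 0.53, where the median gene lay at 4.02. EGR1, an immediate early transcription factor, followed at 0.57, BTG1, an antiproliferative gene, at 0.63, LIF, a cytokine of the interleukin-6 family, at 1.15, and HIVEP2, a zinc finger factor, at 1.26. Nearest to RNU2 was BTG1 at 0.21, ahead of RN7SK at 0.53, LIF at 0.62, HIVEP2 at 0.75 and BHLHE40, a repressor of the circadian clock, at 0.79. With 4 samples in 2 groups, the genes found this way are those with the other large rises of the same contrast, from 6.51-fold for BHLHE40 to 23.6-fold for EGR1.

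**Figure D5:**
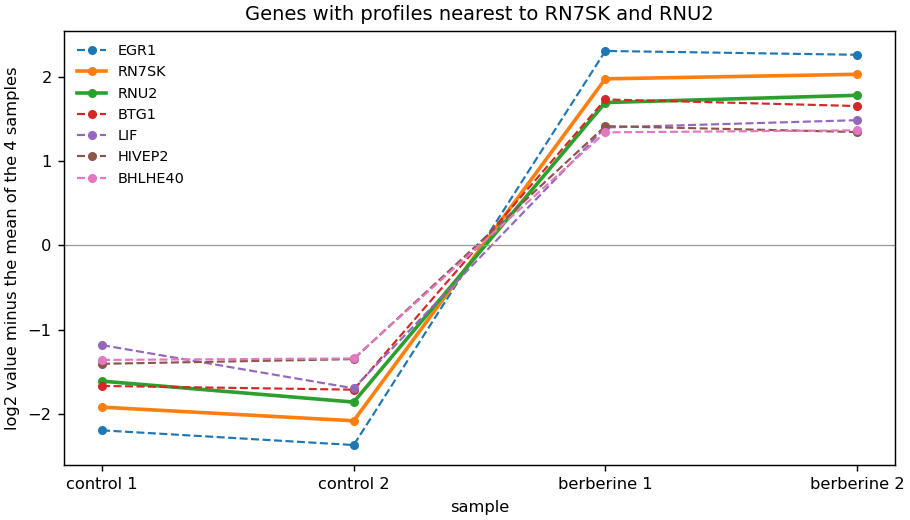
Log2 value minus the mean of the 4 samples for RN7SK and RNU2 (thick lines) and the 5 other genes whose profiles were nearest to either (dashed lines), in controls 1 and 2 and berberine 1 and 2. In each of the 7 genes both controls lie below 0 and both berberine samples above it, and lines join the samples of a gene only to guide the eye.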

How the data were processed

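The deposited table holds 1-colour intensity values on a linear scale, some below 0. How the authors scanned and background-corrected the arrays before they deposited these values is not stated in the labels. Gene names came from the platform annotation, for 20377 of 26423 probes, and 6046 unnamed probes were left out of the test. Intensities were quantile normalized over all probes, negative values were raised to 0, and the log2 of value + 1 was used. A gene was represented by its probe with the highest mean. The test was that of limma (version 3.58.1, R 4.3.3; lmFit, eBayes, 4 samples, no block, 2 residual degrees of freedom), 2-sided, with Benjamini-Hochberg adjustment over 17778 genes. The trend test is the same fit with an intensity trend. The fit was tested on simulated data. The number of arrays limits the precision.

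Members, lists and rules were chosen with earlier results of these data known. The naming rule took, per list, genes past either test, otherwise up to 3 genes at least 2-fold changed with groups apart, otherwise the gene with the strongest statistic, and the 5 genes nearest to RN7SK and to RNU2. Other genes, such as MEPCE, HEXIM2, SNAPC1, POU2F1, U2AF2 and ELL3, were named after their values were seen. Other settings tried were intensities without scaling, arrays centred on their medians, a pseudocount of 50, robust variance, removal of the dimmest 30% of genes, each probe as a row, probe means, a replicate block and each sample left out. Plots were made in Python 3.11.15 (matplotlib 3.10.9). Sequences of these RNAs were not used here.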

Additional observations from a re-analysis of the deposited data

How the results depend on the processing

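The log2 fold change of RN7SK was 3.85 with intensities as deposited, 3.74 with median centring and 3.70 with a pseudocount of 50, and 3.92 to 4.08 with each sample left out. That of RNU2 was 3.30, 3.18 and 3.25 in the same order, and 3.35 to 3.60 with each sample left out. Neither changed direction in any of these, but both were chosen for a large rise in these same samples, so nothing is read from that. LARP7 ranged from -0.41 to 0.16 and CCNT2 from -0.98 to 0.27, so their direction depended on the setting. HEXIM1 ranged from -0.44 to -0.19, CDK9 from 0.09 to 0.77 and CCNT1 from 0.02 to 0.34. Over all genes, 9 passed in limma, 260 with an intensity trend, 251 with a pseudocount of 50 and 138 without the dimmest 30% of genes, and 9 with robust variance and 8 with probe means. The count was 2 with intensities as deposited, and 0 for arrays centred on their medians or probes fitted as separate rows (2244 genes and 3101 probes at an unadjusted limma p under 0.05). It was 0 when control 1, control 2, berberine 1 or berberine 2 was left out (1312 to 2763 genes at an unadjusted limma p under 0.05). Among the 162 genes of the 10 lists, 0 passed, and 3 with an intensity trend. In settings added after seeing the data, the trend test passed 2 of the 162 with intensities as deposited (RDBP and U2AF1), 3 with median centring (RDBP and INTS9 among them), and 0 with any 1 sample left out, where no gene of the table passed. U2AF1 was at -1.17 with median centring (trend adjusted p = 0.0738), a larger change than the -0.94 reported. Replicates of both groups share the numbers 1 and 2, and the deviations of same-numbered samples correlated at 0.09 over genes. With the number as a replicate block, 0 genes passed (1878 at an unadjusted limma p under 0.05), and the fold changes of the 7 genes were the same. With 2 samples a group, dim signal limits what the protein probes can show.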

Other observations

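The RNU2 and RN7SK probes carry consecutive identifiers on the array. Of the 20 probes with the nearest identifiers, 10 on each side, 1 changed at least 2-fold (1.51 for ETOHD2, from a very dim signal), and the median log2 fold change was -0.10. One of them, RN4.5S, named for a small RNA of rodents, was bright and read 5279 and 4609 in the controls and 3217 and 3812 with berberine, in samples labelled as human cells.

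Histone transcripts that lack a poly(A) tail, a feature shared with 7SK and U2, were looked up after the data were seen. Of 30 genes named for core and linker histones, 0 passed in limma, with 4 at an unadjusted limma p under 0.05 (13.0% of all genes were), and HIST1H1B passed the trend test, as did 1.46% of all genes. HIST1H1B rose from 8.05 and 7.98 in the controls to 8.93 and 9.01 with berberine (log2 fold change 0.95, trend adjusted p = 0.0218, limma adjusted p = 0.117). HIST1H4M was at least 2-fold lower with groups apart, at 6.51 and 6.78 in the controls and 5.50 and 4.49 with berberine (log2 fold change -1.65, trend adjusted p = 0.148, limma adjusted p = 0.267). The median of the 30 was -0.03, and none had a mean above 9.24.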
